A study of Mus musculus with 10 samples.

Results

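Ppp1r3g, Pik3r1, Sik1 and Ipmk were followed across the livers of 5 groups of male mice in which the activity of the sterol regulatory element-binding proteins (SREBPs) had been raised or removed. The members were selected from the measured signal, as genes of glycogen and insulin signalling that differ in a transgenic pool, and they are 4 of the 5928 genes measured. They are read by 5 probe sets, 2 for Ipmk and 1 for each of the others. Because the signal in the transgenic pools chose them, their differences there are given as descriptions without a test. Scap-/- against its wild type is the comparison the choice did not use, and it carries the only test given for them.

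The TgSREBP-1a and TgSREBP-2 groups express the nuclear, active form of human SREBP-1a or SREBP-2 from a transgene. They were 12 to 16 weeks old, as were their wild-type littermates, here SREBP wild type. For 2 weeks all 3 of these groups were fed high protein/low carbohydrate chow, which serves to bring the transgenes to high expression, so the diet is shared by transgenic and control mice. The Scap-/- group lost SCAP, the escort protein that SREBPs need to reach the nucleus, through a Cre recombinase under the Mx1 promoter. That promoter answers to interferon and is not restricted to hepatocytes. These mice and their controls, here Scap wild type, were 10 to 12 weeks old and ate Teklad chow. Both received 4 injections of polyinosinic-polycytidylic acid, and livers were taken 14 days after the last one. The Scap groups and the other 3 thus differ in diet, age and injections, which cannot be told apart in any comparison between them. Each group is 1 pool of RNA from 5 mice, hybridised to 2 Affymetrix arrays, and the p-values reflect how far repeat hybridisations differ, not how mice differ.

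Insulin acts on the liver by way of its receptor, the insulin receptor substrates and phosphatidylinositol 3-kinase (PI3-kinase), which turns on AKT and with it glycogen storage and fat synthesis. Glucagon opposes it through cyclic AMP and protein kinase A, which promote glycogen breakdown and glucose output. The members sit at different points of this system. Ppp1r3g encodes a subunit that brings protein phosphatase 1 to glycogen, where it favours glycogen synthesis. Pik3r1 encodes the p85alpha regulatory subunit of PI3-kinase and shorter forms from internal starts. Sik1 encodes salt-inducible kinase 1, an AMPK-related kinase that cyclic AMP induces and that holds back CREB coactivators of glucose production. Ipmk encodes inositol polyphosphate multikinase, which makes the higher inositol phosphates and can also phosphorylate phosphoinositides.

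The upstream sequences of the members are shown because SREBPs act on promoters, often together with the factors NF-Y and Sp1. RefSeq (GRCm38.p6) gave windows for 3 of the 4 genes, with 2 starts for Pik3r1. Each line holds the 250 bases before the start, 5′ to 3′ on the strand of the gene. Capitals mark matches, on either strand, to the motifs named after the sequences.
Ppp1r3g, chr13:35967656-35967905, plus strand: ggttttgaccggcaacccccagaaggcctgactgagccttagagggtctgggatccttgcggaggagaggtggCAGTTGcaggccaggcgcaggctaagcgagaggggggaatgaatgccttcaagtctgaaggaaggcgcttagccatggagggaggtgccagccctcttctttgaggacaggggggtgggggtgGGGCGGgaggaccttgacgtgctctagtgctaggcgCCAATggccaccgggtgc
Pik3r1, upstream start, chr13:101768218-101768467, minus strand: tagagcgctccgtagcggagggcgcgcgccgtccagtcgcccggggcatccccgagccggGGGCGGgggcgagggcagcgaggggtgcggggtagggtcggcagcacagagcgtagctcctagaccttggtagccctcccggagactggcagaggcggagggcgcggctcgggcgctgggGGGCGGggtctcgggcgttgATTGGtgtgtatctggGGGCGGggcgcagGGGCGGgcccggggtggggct
Pik3r1, internal start, chr13:101692631-101692880, minus strand: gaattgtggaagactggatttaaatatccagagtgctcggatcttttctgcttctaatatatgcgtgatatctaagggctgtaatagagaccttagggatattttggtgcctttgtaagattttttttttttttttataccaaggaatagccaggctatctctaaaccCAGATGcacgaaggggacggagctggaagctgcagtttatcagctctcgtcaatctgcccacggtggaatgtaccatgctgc
Ipmk, chr10:71347513-71347762, plus strand: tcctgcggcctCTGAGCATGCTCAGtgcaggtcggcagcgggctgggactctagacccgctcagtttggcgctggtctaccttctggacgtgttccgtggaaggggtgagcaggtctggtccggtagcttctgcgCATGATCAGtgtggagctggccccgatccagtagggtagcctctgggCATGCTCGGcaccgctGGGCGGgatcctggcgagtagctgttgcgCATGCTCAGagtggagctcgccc

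The sterol regulatory element was searched as TCACNCCAC, with N any base. None of the 4 windows holds it, against 1.05% of the 32851 windows of this length in the table. The general E-box, CANNTG, which SREBPs can also bind, occurs once in the Ppp1r3g window and once at the internal start of Pik3r1, and 66.2% of all windows hold it. The CCAAT box, the site of NF-Y, lies 18 bases before the Ppp1r3g start and 50 bases before the upstream Pik3r1 start, where it reads as ATTGG, and is in 33.9% of all windows. The GC box GGGCGG, the site of Sp1, occurs 4 times at the upstream start of Pik3r1 and once each for Ppp1r3g and Ipmk, and 32.7% of windows hold it. The Ipmk window carries 5 matches to CATGNTCNG, 2 of them overlapping on opposite strands, a motif written after reading this window. One or more matches are in 2.45% of all windows, and 4 or more are in 0.00609%. Because the motif was taken from this window, nothing is read from either share. A match is a description of letters, and the probe set of Pik3r1 does not tell its 2 starts apart.

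Of the 43 hepatocyte markers listed, 7 were measured. Hemopexin (Hpx) lay between 10.1 and 11.2 and tryptophan dioxygenase (Tdo2) between 7.64 and 7.80 (log2), while Ahsg (2.66 to 3.29) and Serpina1a (3.22 to 3.71) were dim. Apoh (7.62 to 8.51) and Hp (5.32 to 5.60) had no difference that passed the test, and fibrinogen alpha (Fga) read 9.85 and 8.98 in SREBP wild type, 8.42 and 8.34 in TgSREBP-1a and 9.13 and 8.72 in TgSREBP-2. Fga thus differed by -1.04 in TgSREBP-1a (limma adjusted p = 0.0665) and by -0.49 in TgSREBP-2 (limma adjusted p = 0.79), and its part in the differences of the members was not tested. Array medians lay between 4.70 and 4.77, and for 6 of the 10 the closest array came from another group, not from the same pool. The 3′ signal of the 18S rRNA control was higher in replicate 2 than in replicate 1 in all 5 groups. The values carry no detection calls. In pooled tissue, fewer cells of a type and less RNA per cell cannot be told apart.

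Ppp1r3g was highest in the TgSREBP-1a pool and lower in TgSREBP-2 than in SREBP wild type. Probe set 139276_at read 7.09 and 6.66 (RMA log2 expression) on the TgSREBP-1a arrays, 5.66 and 5.43 in SREBP wild type, and 5.14 and 5.04 in TgSREBP-2. The Scap-/- arrays read 4.93 and 4.94 and the Scap wild type arrays 4.58 and 4.83. No 2 groups overlapped, and the order ran from TgSREBP-1a over SREBP wild type, TgSREBP-2 and Scap-/- to Scap wild type. The means were 6.87 ± 0.31 in TgSREBP-1a, 5.55 ± 0.16 in SREBP wild type and 5.09 ± 0.07 in TgSREBP-2 (SD, n = 2 hybridisations). TgSREBP-1a thus exceeded SREBP wild type 2.51-fold (log2 difference 1.33), and TgSREBP-2 differed from it by -0.46. Between the transgenic pools the log2 difference was 1.78, the third highest of 11868 tested probe sets.

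Pik3r1 was higher in both transgenic pools than in their wild type, and more so with SREBP-1a. Probe set 129853_at read 7.44 and 7.10 in TgSREBP-1a, 6.88 and 6.47 in TgSREBP-2, and 6.41 and 6.07 in SREBP wild type. The Scap-/- arrays read 7.05 and 6.60, and those of Scap wild type 7.08 and 6.77. SREBP wild type was thus the lowest group and TgSREBP-1a the highest, both without overlap with their neighbours, while the 3 groups between them overlapped. TgSREBP-1a exceeded SREBP wild type 2.05-fold (log2 difference 1.03) and TgSREBP-2 did so 1.36-fold (0.44). Replicate 1 was brighter than replicate 2 in all 5 groups, by 0.31 to 0.45, a pattern seen at 6.15% of all probe sets. The labels do not say that a replicate number marks a shared batch, so pairing by it, here and below, may be arbitrary. Within a replicate number the TgSREBP-1a difference was 1.04 and 1.03, and the TgSREBP-2 difference 0.48 and 0.41. The latter dropped to 0.24 when TgSREBP-2 replicate 1 was left out, and to 0.27 when replicate 2 of the wild type was.

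Sik1 was higher in both transgenic pools, to about the same level. Probe set 171483_i_at read 8.31 and 7.98 in TgSREBP-2, 7.93 and 8.03 in TgSREBP-1a, and 7.04 and 6.94 in SREBP wild type. Its suffix is _i_at and not plain _at, and Sik1 has no other probe set. The Scap-/- arrays read 7.40 and 7.03, and Scap wild type 7.48 and 7.19. The transgenic pools overlapped each other and lay above all other arrays, and the remaining 3 groups overlapped in order of their means. Against SREBP wild type, TgSREBP-2 was 2.23-fold higher (log2 difference 1.16) and TgSREBP-1a 1.98-fold (0.99). The direct difference between the transgenic pools was -0.17. Paired by replicate number it was -0.39 in replicate 1 and 0.05 in replicate 2, of opposite sign.

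Ipmk was graded at its brighter probe set, with TgSREBP-1a above TgSREBP-2 and TgSREBP-2 above SREBP wild type. Probe set 129042_at read 6.63 and 6.51 in TgSREBP-1a, 6.26 and 5.71 in TgSREBP-2, 5.69 and 5.08 in SREBP wild type, 5.08 and 5.07 in Scap wild type, and 5.30 and 4.80 in Scap-/-. Scap-/- overlapped both Scap wild type and SREBP wild type. The transgenic pools overlapped no other group, though the lower TgSREBP-2 array (5.71) lay just above the higher SREBP wild type array (5.69). TgSREBP-1a exceeded SREBP wild type 2.26-fold (log2 difference 1.18) and TgSREBP-2 did so 1.51-fold (0.60). Replicate 1 was higher in all 5 groups, by 0.01 to 0.61, and within replicate numbers the TgSREBP-2 difference was 0.57 and 0.63. That difference ranged from 0.29 without SREBP wild type replicate 2 to 0.90 without replicate 1 of the same group. The second probe set, 137541_at, stayed between 3.01 and 3.56 on all 10 arrays, with every group overlapping the next. Its differences from SREBP wild type were -0.05 in TgSREBP-1a and 0.11 in TgSREBP-2, and whether a signal this low lies above background is not known.

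**Figure D1:**
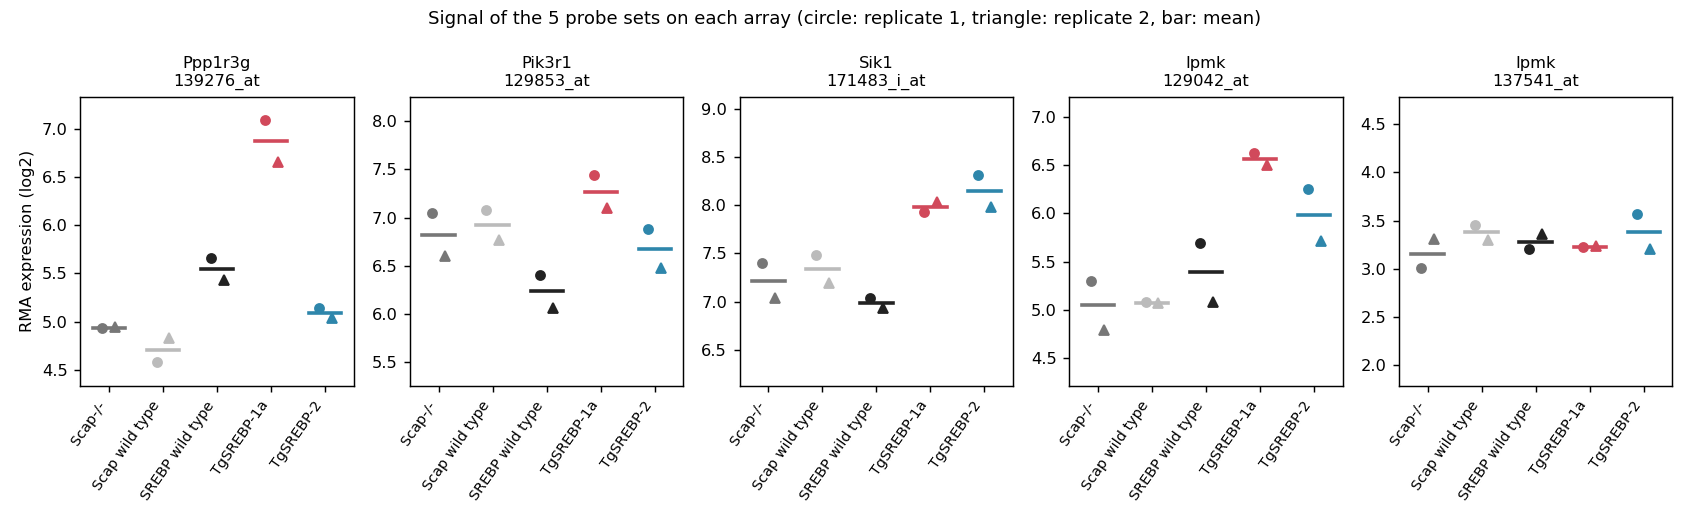
RMA expression (log2, y axis, 3 units tall in each panel) of the 5 member probe sets on the 10 arrays, by group; circles are replicate 1, triangles replicate 2 and bars the mean of 2 hybridisations of a pool. Ppp1r3g stands highest in TgSREBP-1a and lower in TgSREBP-2 than in SREBP wild type, Sik1 is high in both transgenic pools, and Ipmk 137541_at lies between 3.01 and 3.56 throughout.

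Counted over the 5 probe sets, 4 had both TgSREBP-1a arrays above both SREBP wild type arrays, against 15.2% of all probe sets. In TgSREBP-2, 3 lay above (Pik3r1, Sik1 and Ipmk 129042_at), against 16.6% of all, and Ppp1r3g lay below, against 18.5%. Between the transgenic pools, 3 were higher in TgSREBP-1a without overlap, against 15.5%. The choice of members fixes these counts and favours the ranks given above and below, and nothing is read from either. The comparisons with SREBP wild type share its 2 arrays, so a low or high reading there enters both. Among all 11868 differences between TgSREBP-1a and SREBP wild type, the members ranked 21st (Ppp1r3g), 25th (Ipmk 129042_at), 35th (Pik3r1) and 44th (Sik1) from the top. In TgSREBP-2 the ranks from the top were 12 for Sik1, 58 for Ipmk 129042_at and 132 for Pik3r1, while Ppp1r3g was 47th from the bottom.

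**Figure D2:**
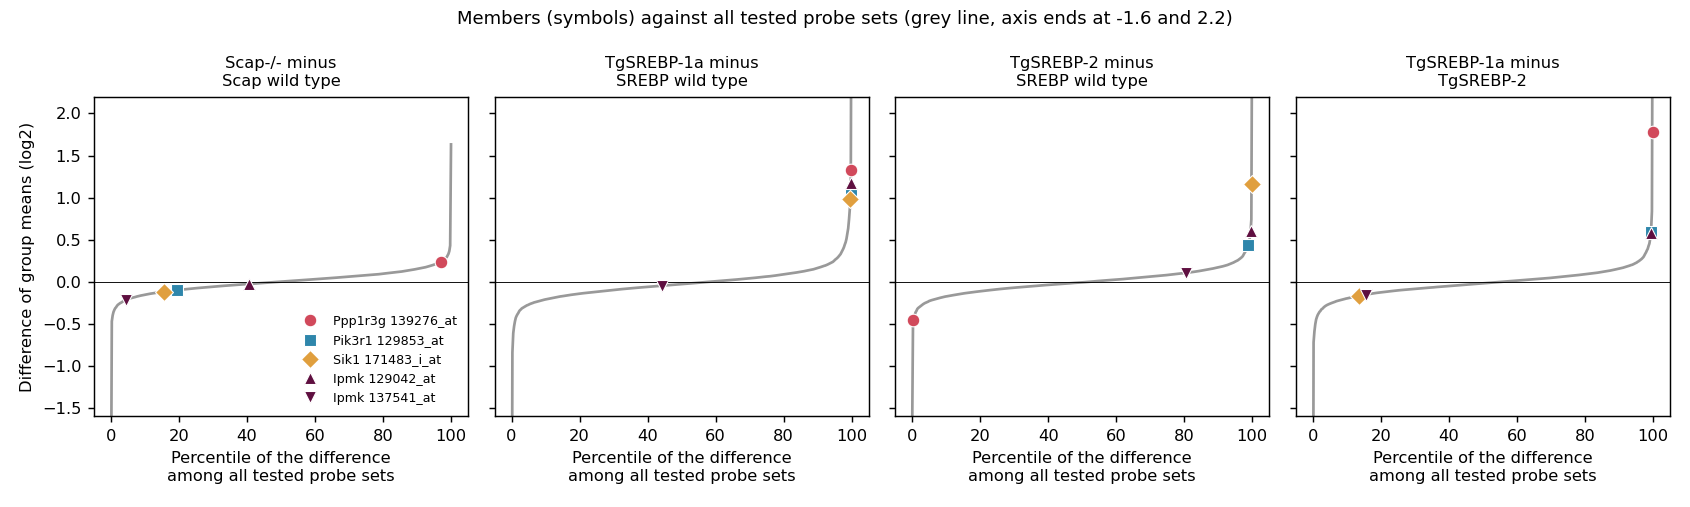
Difference of group means (log2, y axis) against its percentile among all tested probe sets (x axis) in 4 comparisons; the grey line holds all probe sets and symbols are the 5 member probe sets. The members lie between -0.22 and 0.24 in the Scap comparison, 4 of them lie at the upper end in TgSREBP-1a, and Ppp1r3g lies at the lower end in TgSREBP-2 (-0.46).

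Between the pools labelled Scap-/- and Scap wild type no member had a difference that passed the test, defined here as a limma adjusted p under 0.05 and at least 1.5-fold. None was called lower in the Scap-/- pool. By probe set, 0 of 5 were called (limma), against 0.0843% of all probe sets, and 0 of 5 had an unadjusted p under 0.05, against 3.8% of all. Calls were this rare among all probe sets, so nothing is read from their absence here. Ppp1r3g differed by 0.24 (95% interval -0.08 to 0.56, limma adjusted p = 0.999). It was the 1 probe set whose Scap arrays did not overlap, Scap-/- being higher, as at 14.8% of all probe sets. Pik3r1 differed by -0.10 (-0.53 to 0.33) and Sik1 by -0.12 (-0.45 to 0.21). Ipmk differed by -0.03 (-0.51 to 0.46) at 129042_at and by -0.22 (-0.52 to 0.09) at 137541_at. These 4 had the same adjusted p of 0.999. With 2 arrays a pool, decreases within these intervals cannot be told from no change. The intervals are not adjusted for the number of probe sets tested, so a decrease beyond them could also go uncalled. The level of Scap itself was not analysed here, so the extent of the deletion is not known from these values.

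Around the members, 72 other genes of 5 pathway lists were measured, and their calls are given beside the share of all probe sets. In TgSREBP-1a 1 rose and none fell at the probe set that stands for the gene (its brightest), which is 1.39%, against 0.683% of all probe sets called higher and 1.04% called in either direction. In the other 3 comparisons 0 of 72 were called by limma, against 0.0843% of all probe sets in Scap-/-, 0.118% in TgSREBP-2 and 0.514% between the transgenic pools. At an unadjusted p under 0.05 there were 2 of 72 in Scap-/-, 5 in TgSREBP-1a, 7 in TgSREBP-2 and 8 between the transgenic pools. The shares of all probe sets were 3.8%, 9.4%, 6.34% and 7.74% in this order. As shares of 72, the counts lay below these in Scap-/- and TgSREBP-1a. They lay above them in TgSREBP-2 and between the transgenic pools, and whether the shares differ was not tested. The median difference of the 72 genes lay between -0.03 and 0.02 in the 4 comparisons, and that of all probe sets between -0.03 and 0.00.

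The glycogen list had 9 of 36 genes measured, none of them called. Ppp1r3a, which encodes the glycogen-targeting subunit of striated muscle, differed by -0.08 in TgSREBP-1a and 0.18 in TgSREBP-2. Ppp1ca, a catalytic subunit of the phosphatase that Ppp1r3g carries, differed by 0.14 and -0.02. Gsk3b, the kinase that inactivates glycogen synthase, had the highest difference of the list in TgSREBP-1a at 0.23, and Gaa, the lysosomal glucosidase of glycogen, the lowest at -0.19. The glycogen synthase of liver, Gys2, and the liver phosphorylase, Pygl, were not analysed here. Of the gluconeogenesis and glycolysis list, 6 of 27 were measured and none called. Pfkfb2, which makes the allosteric activator of glycolysis, came highest in TgSREBP-1a (log2 difference 0.55, limma adjusted p = 0.241).

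Of the insulin receptor and PI3-kinase list, 18 of 74 genes were measured and none was called in any comparison. Pik3cd, a catalytic partner of the Pik3r1 product found mainly in leukocytes, was the lowest of the list in Scap-/- at -0.33. Pdpk1, the kinase that phosphorylates AKT, differed by 0.28 in TgSREBP-1a, and Akt2, the main AKT of liver, by -0.02 in TgSREBP-1a and 0.08 in TgSREBP-2. Trib1, a pseudokinase, was lowest of this list in TgSREBP-1a at -0.25. Of the glucagon, CREB and LKB1-family list, 21 of 61 were measured and none called. Sik2 and Sik3, the relatives of Sik1, differed by -0.08 and 0.01 in TgSREBP-1a and by -0.01 and -0.19 in TgSREBP-2. Creb1 differed by -0.14 and 0.04 at its brightest probe set. Prkaca, the catalytic subunit of protein kinase A, differed by 0.94 in TgSREBP-2 (limma adjusted p = 0.348) at 167216_f_at and by -0.04 at its other probe set. That difference passed the test with the replicate number as a block (limma adjusted p = 0.0383) and with the transgenic study alone (limma adjusted p = 0.0194).

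The calls among the pathway genes came from the inositol phosphate list, to which Ipmk belongs by function, with 18 of 66 genes measured. Nudt3, which encodes a phosphatase of diphosphoinositol polyphosphates, read 5.95 and 6.44 in TgSREBP-1a, 5.14 and 4.69 in SREBP wild type, and 5.86 and 5.45 in TgSREBP-2. It rose in TgSREBP-1a (log2 difference 1.28, SE 0.256, limma adjusted p = 0.0392), and in TgSREBP-2 it differed by 0.74 (limma adjusted p = 0.629). The Scap-/- arrays of Nudt3 read 5.47 and 5.03, above Scap wild type at 4.90 and 4.20, a difference of 0.70 (limma adjusted p = 0.999). The call was lost without any 1 of the 6 arrays of the transgenic study (log2 difference 1.04 to 1.53, adjusted p = 0.054 to 0.339). The suffix of its probe set, 167078_f_at, marks probes that may match other transcripts.

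Ip6k2 encodes inositol hexakisphosphate kinase 2, which makes the diphosphoinositol polyphosphates that Nudt3 removes, and it is read by 6 probe sets. Probe set 133081_at read 6.74 and 6.44 in TgSREBP-1a, 5.76 and 5.41 in SREBP wild type, and 5.86 and 5.30 in TgSREBP-2. It rose in TgSREBP-1a against SREBP wild type (log2 difference 1.01, SE 0.182, limma adjusted p = 0.0212). It was also higher in TgSREBP-1a than in TgSREBP-2 (1.01, limma adjusted p = 0.0344), so that the pools of the 2 transgenes differed in a direct test. Probe set 140629_s_at differed by 0.79 and 0.86 in these comparisons (limma adjusted p = 0.0546 and 0.0532). The brightest one, 138037_at, differed by 0.42 from SREBP wild type, and the other 3 by -0.11 to 0.25, so the probe sets of Ip6k2 disagree. Without TgSREBP-1a replicate 1 the 133081_at call was lost in both comparisons (log2 difference 0.85 in each, adjusted p = 0.263 and 0.464), as it was without TgSREBP-1a replicate 2 (1.16 in each, adjusted p = 0.07 and 0.114). It was also lost against SREBP wild type without replicate 2 of that group (0.83, adjusted p = 0.236). Against TgSREBP-2 it was lost without TgSREBP-2 replicate 2 (0.73, adjusted p = 0.228), without either Scap wild type array (1.01, adjusted p = 0.056) and when the Scap arrays were all left out (adjusted p = 0.0562). Further down the list, Pikfyve, a phosphoinositide kinase, differed by 0.71 in TgSREBP-1a (limma adjusted p = 0.26) and Plcb1, a phospholipase C, by -0.51 (limma adjusted p = 0.277).

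**Figure D3:**
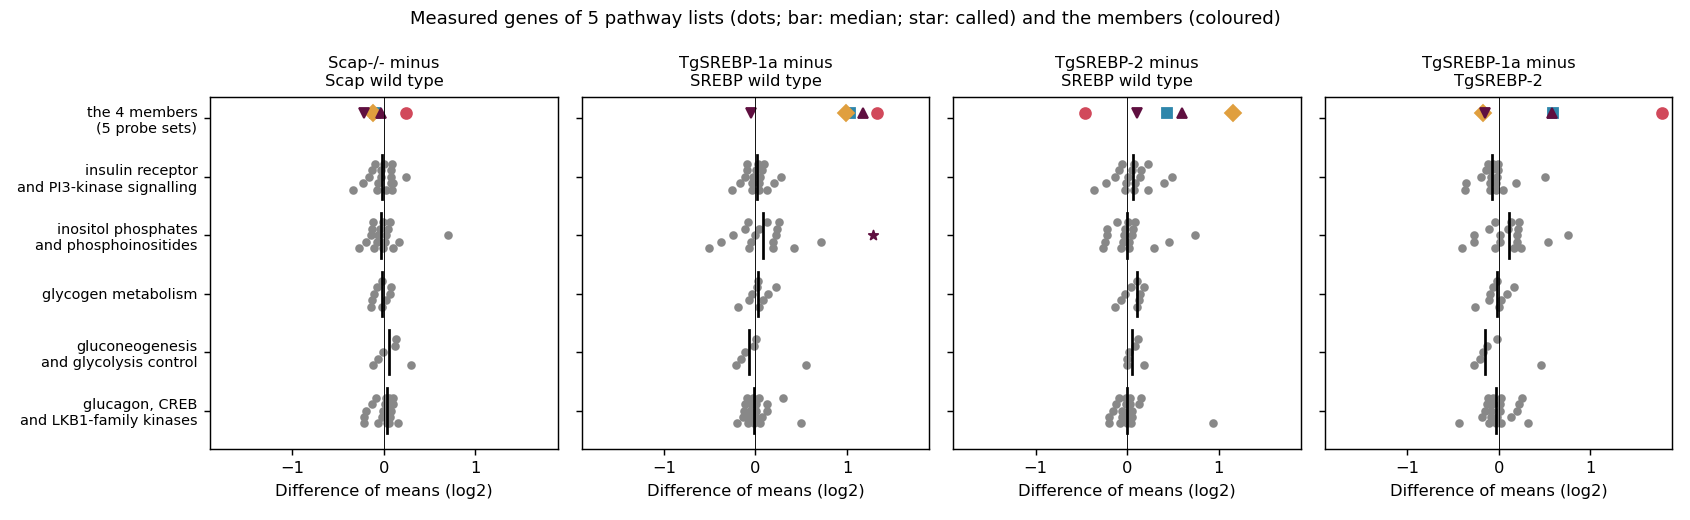
Difference of group means (log2, x axis) of the 72 measured pathway genes (grey dots, by list on the y axis, black bar the median, star a called gene) and of the member probe sets (top row; circle Ppp1r3g, square Pik3r1, diamond Sik1, upward and downward triangle Ipmk 129042_at and 137541_at) in 4 comparisons. The 1 star is Nudt3 in TgSREBP-1a at 1.28, and most pathway genes lie close to 0.

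**Figure D4:**
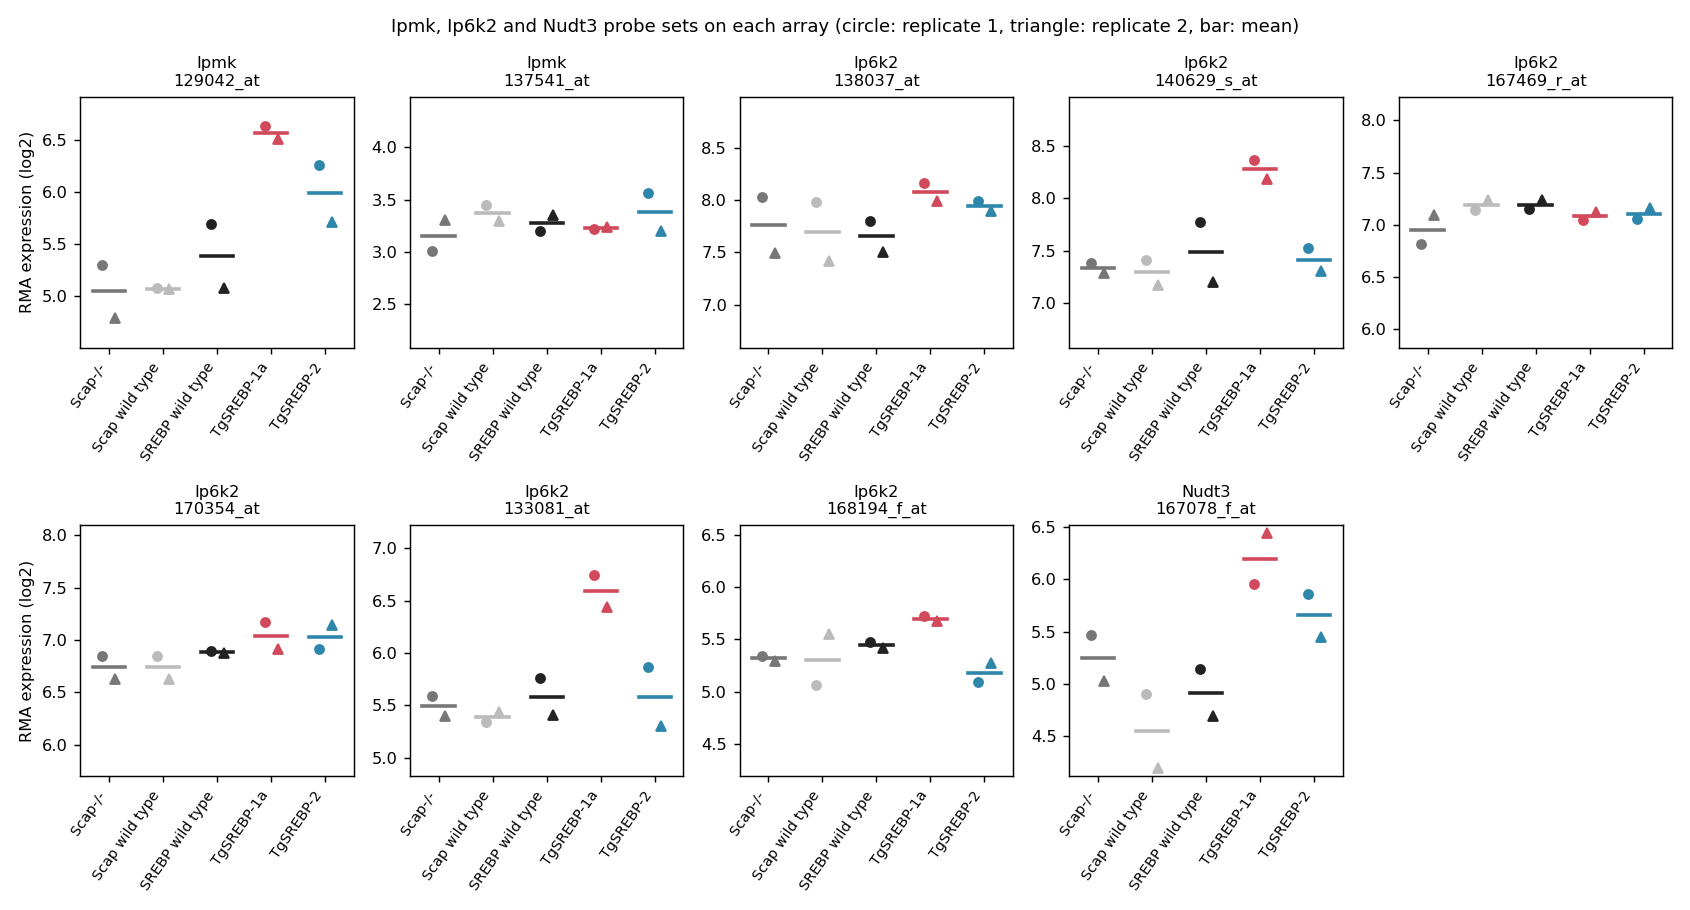
RMA expression (log2, y axis, 2.4 units tall in each panel) of the 2 Ipmk, 6 Ip6k2 and 1 Nudt3 probe sets on each array; circles are replicate 1, triangles replicate 2 and bars the group mean. Ipmk 129042_at, Nudt3 and the Ip6k2 probe sets other than 167469_r_at have their highest mean in TgSREBP-1a, while Ip6k2 167469_r_at lies near 7 in all groups.

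The members differed in the genes whose signal followed them most closely over the 10 arrays. The comparison ran over 86 probe sets of other genes whose group means spanned at least 1 on the log2 scale. The arrays are duplicates of 5 pools, so the correlations describe these pools and carry no p. The members were chosen for their transgenic signal and these genes by correlation with it, so a shared highest group is no further result. Ppp1r3g was closest to Nrg4, an epidermal growth factor family ligand (r = 0.95), Sult1e1, an estrogen sulfotransferase (0.95), and Ip6k2 133081_at (0.93). All 3 had their highest group mean in TgSREBP-1a. Their TgSREBP-2 means stood near SREBP wild type, at 7.43 against 7.49 for Nrg4, 4.06 against 4.21 for Sult1e1 and 5.58 in both for Ip6k2. Sik1 was closest to Abcg8, a subunit of the sterol transporter into bile (0.95), and to the cholesterol synthesis genes Cyp51 (0.93) and Pmvk (0.92), all of them highest in TgSREBP-2. Ipmk 129042_at was closest to Ap5s1, a subunit of an adaptor complex (0.94), the fatty acid desaturase Fads2 (0.93) and Nipal1 (0.92), all of them highest in TgSREBP-1a and second in TgSREBP-2. Pik3r1 was closest to Slain2, a microtubule-associated protein (0.95), Lactb2 (0.94) and Laptm5, a lysosomal protein of blood cells (0.92). These 3 shared with it the highest mean in TgSREBP-1a and the lowest in SREBP wild type. For Sik1 and Ipmk the likeness was not close in every group. In the Scap-/- pool, Pmvk averaged 5.98 against 7.71 in the control pool, Cyp51 4.70 against 5.02 and Abcg8 7.54 against 7.75. The matching Sik1 means were 7.22 and 7.34. Fads2 averaged 8.39 against 9.58, while Ipmk 129042_at stood at 5.05 and 5.08. Ap5s1 (7.676 and 7.685) and Nipal1 (3.21 and 3.18) also differed little. Among the members themselves r was 0.80 between Ppp1r3g and Ipmk 129042_at, 0.80 between Sik1 and Ipmk 129042_at, and 0.36 between Ppp1r3g and Sik1. For Pik3r1 it was 0.40 with Ppp1r3g, 0.56 with Sik1 and 0.52 with Ipmk 129042_at. For Ipmk 137541_at it lay between -0.22 and 0.21 with every other member probe set, and at -0.01 with Ipmk 129042_at.

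**Figure D5:**
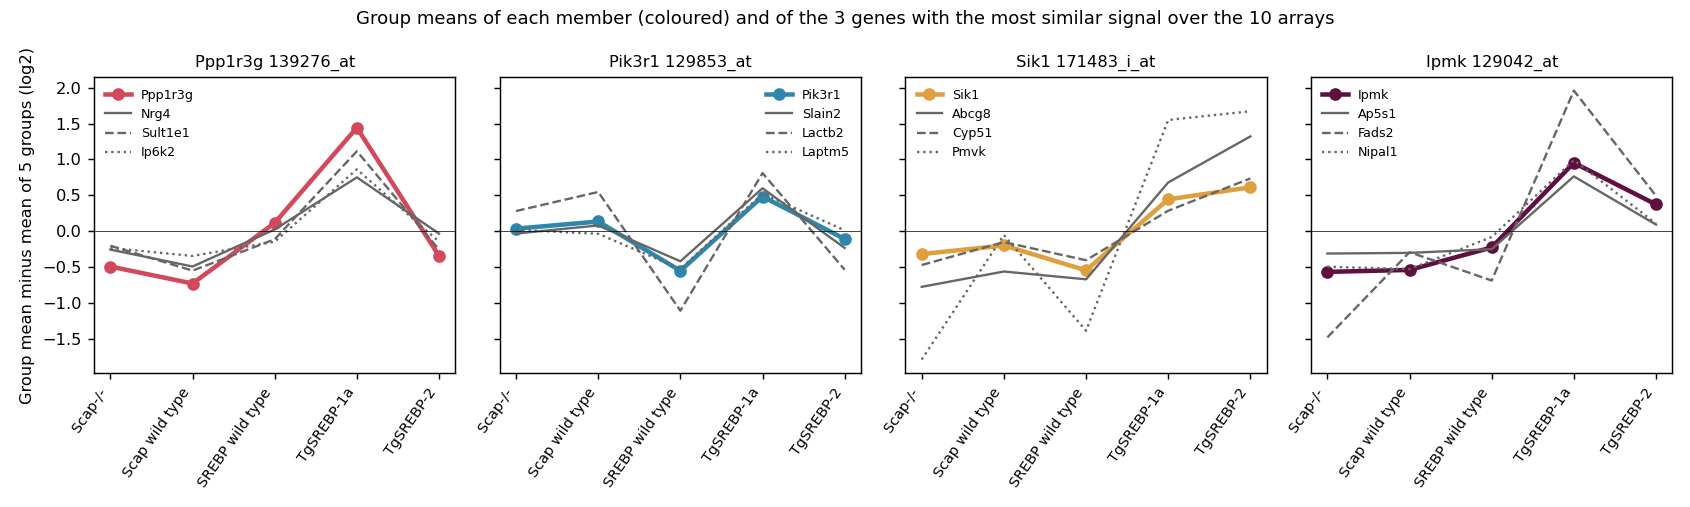
Group means, each centred on the mean of the 5 groups (log2, y axis), of the 4 member probe sets (coloured lines with points) and of the 3 genes with the highest Pearson correlation to each over the 10 arrays (grey lines). The 3 genes drawn with Sik1 have their highest mean in TgSREBP-2, and those drawn with the other members have it in TgSREBP-1a.

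Some markers of other cell types moved between the same pools. The 3 measured of 16 macrophage and Kupffer cell markers (C1qc, Laptm5 and Vsig4) had a log2 summed level of 9.09 to 9.46 in SREBP wild type, 10.2 to 10.3 in TgSREBP-1a and 9.78 to 9.90 in TgSREBP-2. It was 9.53 to 9.90 in Scap-/- and 9.60 to 9.77 in Scap wild type. The 7 measured of 21 pancreatic acinar markers had one of 9.81 to 10.4 in SREBP wild type, 7.31 to 7.36 in TgSREBP-1a and 10.7 to 11.1 in TgSREBP-2. In Scap-/- it was 7.22 to 7.35 and in Scap wild type 8.89 to 8.94. Cpa1, an acinar carboxypeptidase, fell in TgSREBP-1a (log2 difference -4.39, limma adjusted p = 7.04e-07) and in Scap-/- (-2.86, limma adjusted p = 0.000152). The sums are of linear levels, so Cpa1 weighs most in SREBP wild type, TgSREBP-2 and Scap wild type, where it is the brightest acinar marker. Differences of the 7 ran from -4.39 to -0.08 (Pnliprp1) in TgSREBP-1a and from -0.21 (Pnliprp1) to 1.12 (Cuzd1) in TgSREBP-2. In Scap-/- they ran from -2.86 to 0.19 (Amy2a5). Of the macrophage markers, Laptm5 (1.05) and Vsig4 (1.14) rose in TgSREBP-1a (limma adjusted p = 0.00538 and 0.0185), while C1qc differed by 0.17 (limma adjusted p = 0.65). Of the 8 bile duct markers, 2 were measured (Epcam and Sox9), with a log2 summed level of 8.909 to 9.004 in SREBP wild type, 8.63 in TgSREBP-1a and 8.65 to 8.67 in TgSREBP-2. It was 9.05 to 9.07 in Scap-/- and 9.02 in Scap wild type. Epcam, an epithelial adhesion protein, fell in TgSREBP-1a at its brightest probe set (log2 difference -0.63, limma adjusted p = 0.00538). There it differed by -0.54 in TgSREBP-2 (limma adjusted p = 0.0587), while its other probe sets differed by 0.05 and 0.01 in TgSREBP-1a. Sox9 went the other way at its brightest probe set, by 0.24 in TgSREBP-1a and 0.18 in TgSREBP-2 (limma adjusted p = 0.426 and 0.828). Its other probe sets differed by -0.34 and -0.02 in TgSREBP-1a and by -0.47 and -0.13 in TgSREBP-2. The log2 summed level of the 3 measured endothelial markers was 8.85 to 9.17 over the 3 groups of the transgenic study and 8.68 to 8.87 over the Scap groups. The part of these cells in the differences of the members was not tested.

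Genes beside the members on the chromosome were compared as well, in the order of the RefSeq annotation. Of the 2 protein-coding genes on either side, 9 of 16 were measured and none was called in any comparison. Cisd1, next to Ipmk and the gene of an iron-sulfur protein of mitochondria, differed by 0.92 in TgSREBP-1a (limma adjusted p = 0.161), 0.50 in TgSREBP-2 and -0.88 in Scap-/-. Lyrm4, next to Ppp1r3g, differed by 0.13 in TgSREBP-1a and in TgSREBP-2, and Hsf2bp and Cryaa, next to Sik1, by -0.06 and 0.12 in TgSREBP-1a.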

How the data were processed

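Liver RNA of 5 groups, each a pool from 5 mice (20 µg), was hybridised to 2 arrays per pool, 10 in all. The deposited values are log2 expression per probe set, made with RMA per the submitters' processing notes (version not given in the sources used here), and the series' design text also names Microarray Suite 5.0. The log2 scale was taken from the range of 2.17 to 13.3. The table holds 11934 probe sets, of which 66 controls were left out and 11868 tested. By the platform annotation 7717 of these carry a single gene symbol, 150 carry more than 1 and 4001 carry no symbol. For 7677 of the probe sets with a single symbol, RefSeq held the Entrez identifier. Arrays give no counts, so their number limits the precision.

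Groups were compared with limma 3.58.1 (R 4.3.3) in a single fit of the 10 arrays, with Benjamini-Hochberg adjustment over all tested probe sets. The procedure was tested on simulated data. A gene's brightest probe set stands for it in lists. Named genes were the members, pathway genes that were called, highest or lowest in a list or on a preset list of regulators, and the 3 most similar in pattern. The members and lists were chosen with earlier results of these data known. The alternatives were other normalisations, filters, variance models, fold floors, a replicate block and leaving out each array. The labels do not say that a replicate number marks a shared batch, and deviations of same-numbered arrays correlated at -0.17 to 0.33 between groups.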

Additional observations from a re-analysis of the deposited data

Results flagged for a closer look

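Ppp1r3g 139276_at lay on opposite sides of SREBP wild type in the transgenic pools, with both TgSREBP-1a arrays above and both TgSREBP-2 arrays below it. The difference between the transgenic pools was 1.78 on the log2 scale and was not tested, since these pools chose the gene.

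Ip6k2 133081_at differed between TgSREBP-1a and TgSREBP-2 by 1.01 on the log2 scale in a direct test (SE 0.182, limma adjusted p = 0.0344). Both TgSREBP-1a arrays were above both TgSREBP-2 arrays, and 5 further probe sets of Ip6k2 did not pass the test.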

How the results depend on the processing

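Member differences could change only with the normalisation or on leaving out an array of the groups compared. Leaving out an array gave Ppp1r3g 1.11 to 1.54 in TgSREBP-1a against SREBP wild type and 1.57 to 2.00 against TgSREBP-2. It gave 0.24 to 0.65 for Pik3r1 and 0.29 to 0.90 for Ipmk 129042_at in TgSREBP-2 against SREBP wild type, and 0.39 to 0.80 and 0.31 to 0.85 for TgSREBP-1a minus TgSREBP-2, lowest without TgSREBP-2 replicate 2. Ipmk 137541_at changed sign, at -0.13 to 0.03 in TgSREBP-1a, -0.08 to 0.29 in TgSREBP-2 and -0.33 to 0.03 for TgSREBP-1a minus TgSREBP-2. In Scap-/- no member was called under any of them. The sign of the Scap-/- difference also changed on leaving out an array for Pik3r1 (-0.32 to 0.12), Sik1 (-0.30 to 0.06) and Ipmk 129042_at (-0.28 to 0.23). Counts of called probe sets moved more. In Scap-/- the count was 10, and 4 with plain _at probe sets or the Scap arrays alone, 19 with the replicate number as a block, and 3 to 11 on leaving out an array. In TgSREBP-1a it was 123, and 67 with plain _at probe sets, 59 with a 2-fold floor, 186 with the block and 40 to 134 on leaving out an array. In TgSREBP-2 it was 14, and 4 with plain _at probe sets, 37 with the block and 7 to 17 on leaving out an array. Between the transgenic pools it was 61, and 36 with plain _at probe sets, 31 with a 2-fold floor, 96 with the block and 23 to 65 on leaving out an array. Of the pathway genes, 1 was called in TgSREBP-1a, and 0 with plain _at probe sets, with a variance trend and robust variance, and 0 to 1 on leaving out an array. In TgSREBP-2 none was called, and 1 (Prkaca) was with the block or with the transgenic study alone. Exchanging the replicate numbers of TgSREBP-2 in the block, an alternative chosen after seeing the data, gave 11, 165, 23 and 78 called probe sets in the order above and 1 pathway gene in TgSREBP-2. The number of arrays, 2 a pool, limits the precision of every value here.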
